A study of Homo sapiens with 6 samples.

Results

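The enzymes that break down tryptophan were examined on 6 oligonucleotide arrays of Huh7 cells, an established human hepatocellular carcinoma line in logarithmic growth. The arrays form 2 groups of 3, cells labelled as KCa3.1 silenced (genotype KCa3.1 knockdown) and control Huh7 cells, with no other allele or agent named in the labels, which do not give how the channel was silenced or whether the replicates were separate cultures. If the replicates share a culture, the p-values below cover technical spread only. The set holds 9 genes of 18132 measured, namely TDO2, IDO1, IDO2, AFMID, KMO, KYNU, HAAO, ACMSD and QPRT, taken as every probe set that the platform annotation gives to one of these symbols. That makes 16 probe sets of 49293. The genes were chosen by measured values, namely the difference between the 2 groups, above all that of TDO2, so their differences are given as a description without a test.

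Most tryptophan that is not built into protein is degraded in liver through kynurenine. TDO2, which acts in hepatocytes, IDO1 and IDO2 are haem enzymes that open the indole ring. AFMID releases kynurenine, and KMO, KYNU and HAAO carry it on to an unstable intermediate. There the path forks: ACMSD, a decarboxylase, sends the intermediate towards complete oxidation through glutarate, whereas quinolinate that forms when it is spared is taken by QPRT into NAD synthesis. Hepatic TDO2 is known for its induction by glucocorticoids and by its own substrate, and IDO1 for its induction by interferon-gamma.

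Values are log2 RMA values relative to a baseline of each probe set, so they show differences between arrays and not how strongly a gene was expressed. For the same reason the hepatic identity of the cells could not be checked by marker levels. KCNN4, the gene of KCa3.1, was not lower in the arrays labelled silenced. Its values were -0.05, 0.09 and 0.01 in the silenced-labelled arrays and -0.01, 0.13 and -0.07 in the control arrays, a difference of -0.00033 (95% interval -0.157 to 0.156, limma adjusted p = 0.999, two-sided exact permutation p = 1, where the smallest possible is 0.1). The 3 probe sets of KCNN4 are all of a kind whose probes can match transcripts of other genes. Whether such transcripts reach them was not tested. All directions below are therefore between arrays as labelled. Over all probe sets, arrays of the same label correlated at r between 0.406 and 0.67 and arrays of different labels between -0.273 and 0.068. These r are of values relative to the baseline and do not show how alike the expression levels were. Of 10 markers of lymphoid, myeloid, stromal and endothelial cells 1 was higher and 9 did not pass. It was LYZ (0.34, SE 0.078, limma adjusted p = 0.022), a call lost without silenced replicate 3 or control replicate 1 or 3 (0.26, 0.29 and 0.34). The count was 2 without probe sets that hold an exact 0 on 2 or more arrays. The array means of these 10 markers ranged from -0.02 to 0.04 in silenced-labelled and from -0.04 to 0.03 in control arrays, and their part in the results was not tested.

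TDO2, the enzyme of the opening, rate-setting step in liver, was higher in the silenced-labelled arrays. Its values were 0.61, 0.59 and 0.61 in the silenced-labelled arrays and -1.02, -1.01 and -1.04 in the control arrays. Every silenced-labelled array lay above every control array, and the arrays of each label were nearly level with each other. The difference was 1.63 (SE 0.050, 95% interval 1.51 to 1.74), which is 3.09-fold. By size it ranked 24 among the 18132 genes, and 16 among those that were higher. The SD within groups was 0.013 for TDO2, against a median of 0.082 over all genes, and only 0.265% of genes had a smaller one. Among the 118 genes that passed the threshold at 2-fold or more, 0 had a smaller SD, and the next lowest was 0.028. TDO2 was measured by 1 probe set, so no second probe set bears on it, and its values were never exactly 0.

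Of 8 hepatocyte markers 5 were higher, 0 lower, and the other 3 did not pass, with a median difference of 0.29, where 13.3% of all genes passed and 7.14% were higher. Their mean over the 8 genes ranged from 0.128 to 0.132 in the silenced-labelled arrays and from -0.26 to -0.20 in the control arrays. The count that passed was 4 with specific probe sets, scaled arrays, either probe set filter or the replicate block. It was also 4 without silenced replicate 1, 2 or 3 or without control replicate 2 or 3. APOA1, an apolipoprotein, had the largest difference at 1.14 (SE 0.077, limma adjusted p = 3e-05), and AFP, the fetal serum protein of liver and hepatoma, followed at 0.70. Those that did not pass were ALB, albumin (0.16), TTR, transthyretin (0.06), and TF, transferrin (-0.19). The difference of TF ran the other way, with all 3 silenced-labelled arrays below the control arrays. In ALB all 3 lay above them. The groups did not overlap in 7 of the 8 markers, as in 29.3% of all genes. In such bulk samples fewer cells of a type and less RNA per cell cannot be told apart, and the part of these markers in the difference of TDO2 was not tested.

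**Figure D1:**
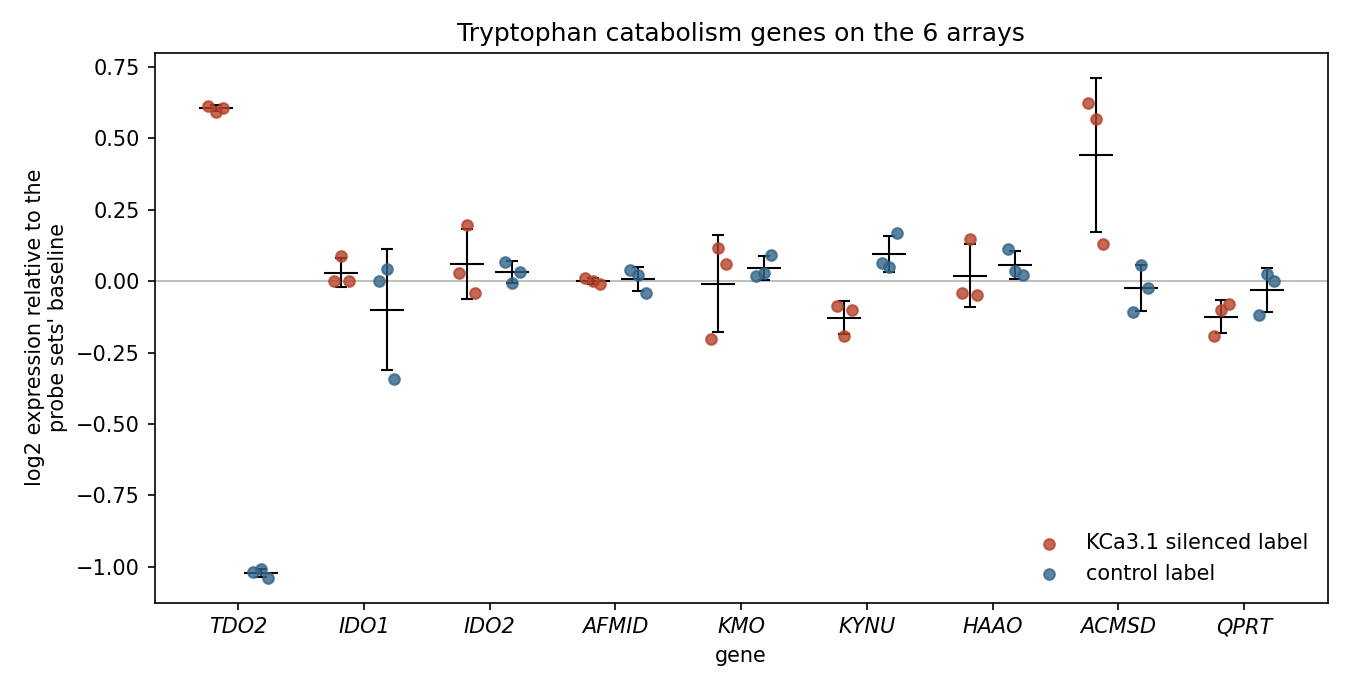
Each point is the value of a gene on an array (log2, relative to the baseline of its probe sets), with the mean and SD of the 3 arrays of each label beside it in black, silenced-labelled left of control. TDO2 shows the widest separation of the 9 genes, 0.61 against -1.02 in the means, and most other genes overlap around 0.

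The 5 genes whose 6 values lay closest to those of TDO2, by the root mean square difference over the 6 arrays, were CYRIA (0.144), F2RL2 (0.18), ALG5 (0.182), DACH1 (0.223) and FAM20A (0.233). Their differences ranged from 1.25 in FAM20A to 2.00 in DACH1. In each of the 5 the silenced-labelled arrays lay above the control arrays. Both follow from picking genes with values close to those of TDO2, so nothing is read from them. On the chromosome, CTSO, the gene next to TDO2 that encodes cathepsin O, was also higher (0.57, SE 0.078, limma adjusted p = 0.0016), and ASIC5 on the other side had a difference of 0.10. CTSO was singled out after its value was seen.

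The stretch of 250 bases ahead of the start of TDO2 is shown because TDO2 carries the largest difference of the set, and that of KYNU because it is the gene that was lower. Both are from RefSeq on build GRCh38.p14, plus strand, at chr4:155903446-155903695 for TDO2 and chr2:142877414-142877663 for KYNU, printed 5′ to 3′. Capitals mark matches on either strand to AGAACA (a partial site of the glucocorticoid receptor), TGTTTAC and TATTTAC (forkhead cores), GCGTG (the core bound by AHR), CCAAT and TATAAA.
TDO2: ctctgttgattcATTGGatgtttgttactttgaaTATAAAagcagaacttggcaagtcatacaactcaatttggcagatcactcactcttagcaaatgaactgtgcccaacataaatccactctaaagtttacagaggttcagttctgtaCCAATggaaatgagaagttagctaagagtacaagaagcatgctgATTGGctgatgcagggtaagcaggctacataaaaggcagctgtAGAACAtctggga
KYNU: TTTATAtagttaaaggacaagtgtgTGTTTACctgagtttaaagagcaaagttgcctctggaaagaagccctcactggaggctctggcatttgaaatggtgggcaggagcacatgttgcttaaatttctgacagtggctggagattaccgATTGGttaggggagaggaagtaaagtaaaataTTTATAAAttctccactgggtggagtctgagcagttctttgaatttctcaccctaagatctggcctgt
In TDO2 the AGAACA match lies at positions -13 to -8 from the start, and 12.4% of the 35116 promoters hold that motif. TDO2 also holds 3 CCAAT matches and 1 TATAAA match, motifs found in 32.0% and 10.7% of promoters. KYNU holds TGTTTAC at -225 to -219, present in 2.98% of promoters, besides 1 CCAAT match and 3 TATAAA matches, of which the pair at -68 to -63 and -66 to -61 overlap on opposite strands. GCGTG, found in 32.2% of promoters, and TATTTAC, found in 2.395%, were not among the letters of either window. These matches are descriptions of the letters. Promoter entries were found for 6 of the 9 genes.

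The other ring-opening enzymes differed little. IDO1 had 0, 0.09 and 0 in the silenced-labelled arrays and 0, 0.04 and -0.34 in the control arrays, with control replicate 3 apart from the other 5. Its difference of 0.13 (95% interval -0.09 to 0.35) became 0.008 without control replicate 3. IDO2, the neighbour of IDO1 on chromosome 8, had 0.03, 0.20 and -0.04 in silenced-labelled and 0.07, -0.01 and 0.03 in control arrays, a difference of 0.03 (95% interval -0.13 to 0.19). The groups overlapped in each of these genes, and the interval of IDO1, the wider of them, ended at 1.28-fold.

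AFMID, the formamidase that frees kynurenine, had a difference of -0.006 (95% interval -0.12 to 0.11) as the mean of 2 probe sets. Those moved apart, with differences of 0.09 and -0.10, and neither passed. The even value of AFMID is thus a mean of opposite ones, each inside the spread between arrays.

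KMO, the flavin enzyme that hydroxylates kynurenine, had -0.20, 0.11 and 0.06 in silenced-labelled and 0.02, 0.03 and 0.09 in control arrays, a difference of -0.05 (95% interval -0.245 to 0.136). Silenced replicate 1 lay lowest and the groups overlapped. Here too the 2 probe sets differed in sign. The probe set whose suffix marks it as specific to the gene had -0.35, 0 and -0.12 in silenced-labelled arrays, all below the 0.10, 0.07 and 0.06 of the control arrays, with a difference of -0.24 (95% interval -0.45 to -0.03) that did not pass the threshold over all probe sets. The other one, of a kind whose probes can match transcripts of other genes, had a difference of 0.13. KMO overlaps OPN3 on the chromosome, and OPN3, an opsin gene singled out after its value was seen, was lower (-0.30, SE 0.054, limma adjusted p = 0.0061). Whether its transcripts reach a KMO probe set was not tested.

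KYNU, the pyridoxal phosphate enzyme that splits hydroxykynurenine and kynurenine, was lower in the silenced-labelled arrays. Its gene values were -0.09, -0.19 and -0.10 in silenced-labelled and 0.06, 0.05 and 0.17 in control arrays, so the groups did not overlap. The difference was -0.22 (SE 0.060, 95% interval -0.36 to -0.09), which is 1.17-fold lower. It rested mainly on 1 of 3 probe sets. That probe set had -0.12, -0.42 and -0.28 in silenced-labelled and 0.19, 0.14 and 0.28 in control arrays, a difference of -0.48 (SE 0.088), 1.39-fold lower. The other 2, which the platform annotation assigns to another RefSeq transcript of KYNU, had differences of -0.03 and -0.15 and did not pass, and the groups overlapped in each. One of these 2 held exact zeros on 3 of the 6 arrays.

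**Figure D2:**
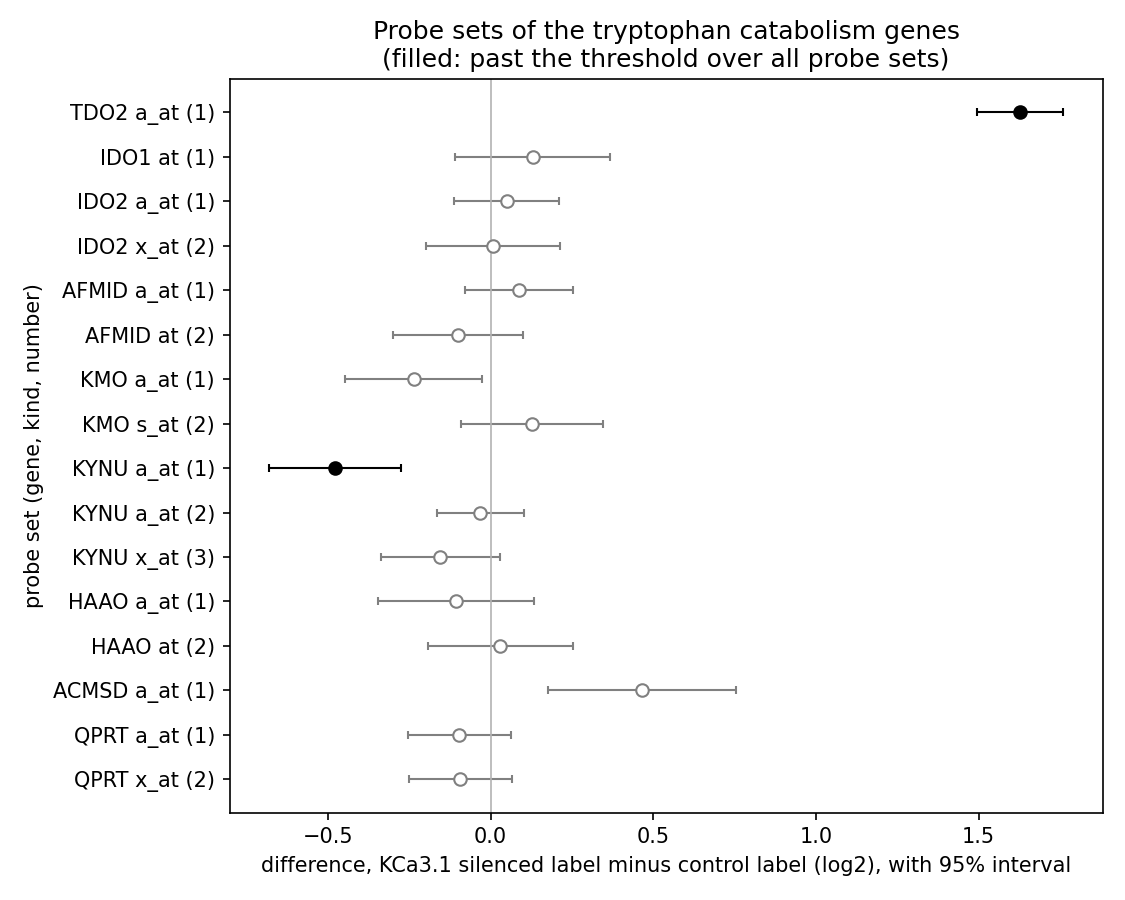
Each row is a probe set of the 9 genes, placed by its difference between silenced-labelled and control arrays (log2) with its 95% interval, and filled circles passed the threshold over all probe sets. TDO2 at 1.63 and the first KYNU probe set at -0.48 are filled, and the probe sets of AFMID, KMO and HAAO lie on both sides of 0.

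HAAO, the dioxygenase of hydroxyanthranilate, had -0.04, 0.15 and -0.05 in silenced-labelled and 0.11, 0.04 and 0.02 in control arrays. The groups overlapped, and the difference was -0.04 (95% interval -0.19 to 0.12). Its 2 probe sets had differences of -0.11 and 0.03.

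At the fork, ACMSD was higher in the silenced-labelled arrays and QPRT did not pass. ACMSD had 0.62, 0.57 and 0.13 in silenced-labelled and -0.11, 0.06 and -0.02 in control arrays. The groups did not overlap, but silenced replicate 3 lay far closer to the control arrays than to the other 2 of its label. The difference was 0.47 (SE 0.120, 95% interval 0.19 to 0.74), which is 1.38-fold, and it was 0.62 without silenced replicate 3. The SD within groups of ACMSD, 0.2, was above that of 96.6% of genes. Its only probe set passed in the fit over genes and lay just outside in the fit over probe sets. QPRT, the phosphoribosyltransferase of quinolinate, had -0.19, -0.10 and -0.08 in silenced-labelled and -0.12, 0.03 and 0 in control arrays, a difference of -0.09 (95% interval -0.23 to 0.05). A further probe set, annotated to QPRT under 2 gene identifiers and left out of the gene value, gave -0.10.

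Counted over the path, 2 of the 9 genes were higher, TDO2 and ACMSD, 1 was lower, KYNU, and 6 did not pass at a limma adjusted p under 0.05 over all genes. Of all genes 13.3% passed, 7.14% as higher and 6.19% as lower. The same 3 genes were those whose groups did not overlap, which was so in 29.3% of all genes. The median difference was -0.006 over the 9 genes and also -0.006 over all genes. Because the genes were chosen with this contrast known, nothing is read from these shares. Of the 16 probe sets 2 passed, 1 as higher and 1 as lower, where 10.7% of all probe sets did, 5.82% as higher and 4.85% as lower. In 4 of the 16 the groups did not overlap, against 26.7% of all probe sets. The 6 genes that did not pass had differences between -0.09 and 0.13, with intervals that reached no further than a fall of 15.6% and a rise of 1.28-fold.

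Since the genes were chosen on this contrast, the alternative settings describe how its values vary and lend them no support. TDO2 was past the threshold in all 15 settings, with differences between 1.56 and 1.63, ACMSD in 10 and KYNU in 7. The ACMSD call was lost without silenced replicate 1 (0.37) or 2 (0.40) and without control replicate 1 (0.42), 2 (0.51) or 3 (0.47). The KYNU call was lost when any of the 6 arrays was left out, with differences between -0.24 and -0.19. It was also lost with the median in place of the mean of its probe sets (-0.17) and with the replicate block (-0.22). The number of the 9 genes that passed was accordingly 1 without silenced replicate 1 or 2 or without control replicate 1, 2 or 3. It was 2 without silenced replicate 3, with the median and with the replicate block.

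**Figure D3:**
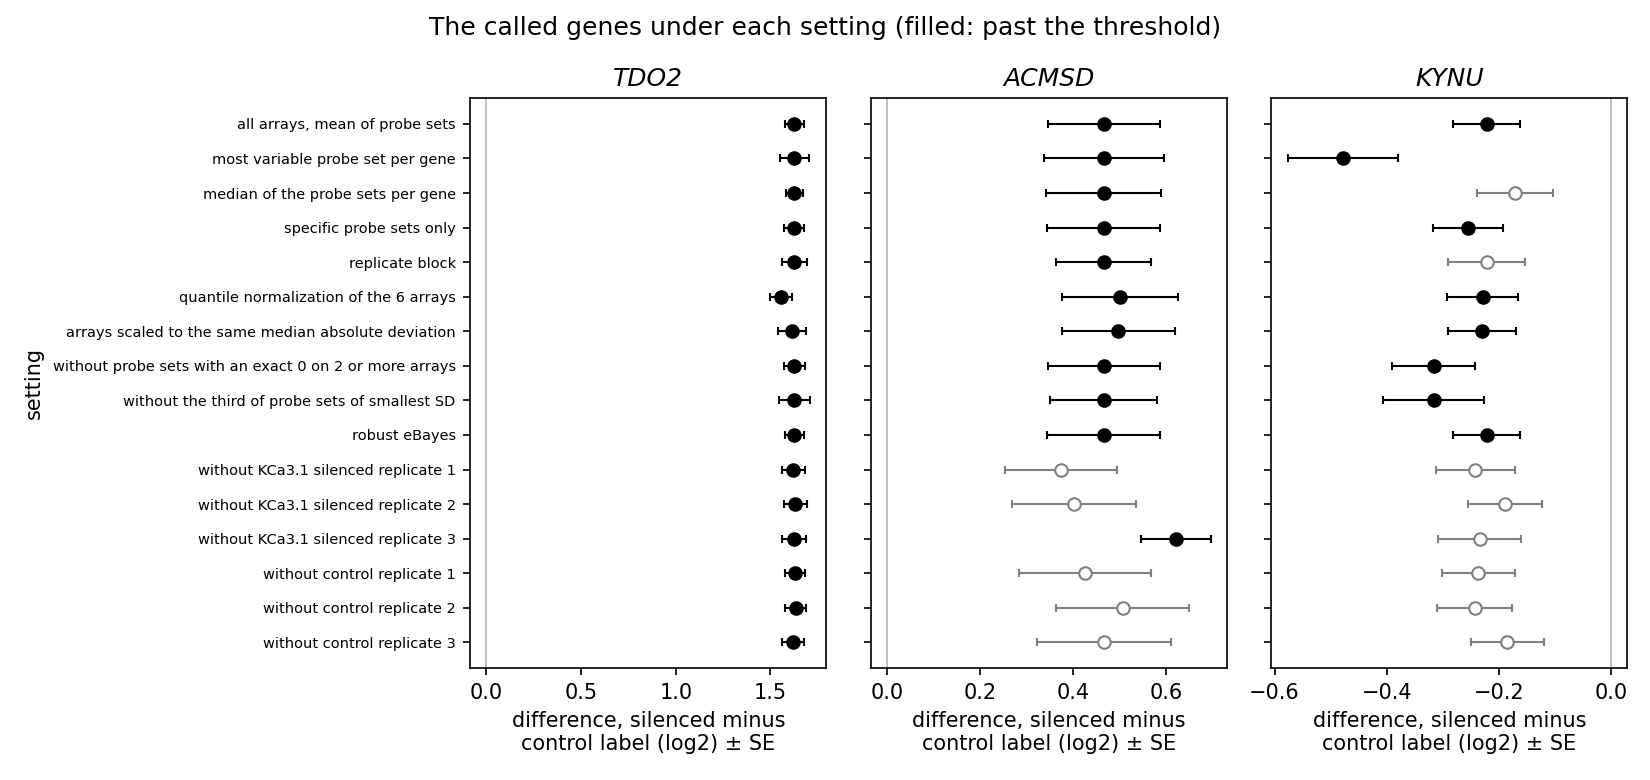
Each row is a setting, and each point the difference between silenced-labelled and control arrays (log2) with its SE, filled where it passed the threshold over all genes. TDO2 stays between 1.56 and 1.63 and filled, whereas ACMSD and KYNU are open in 5 and 8 of the 15 alternatives.

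**Figure D4:**
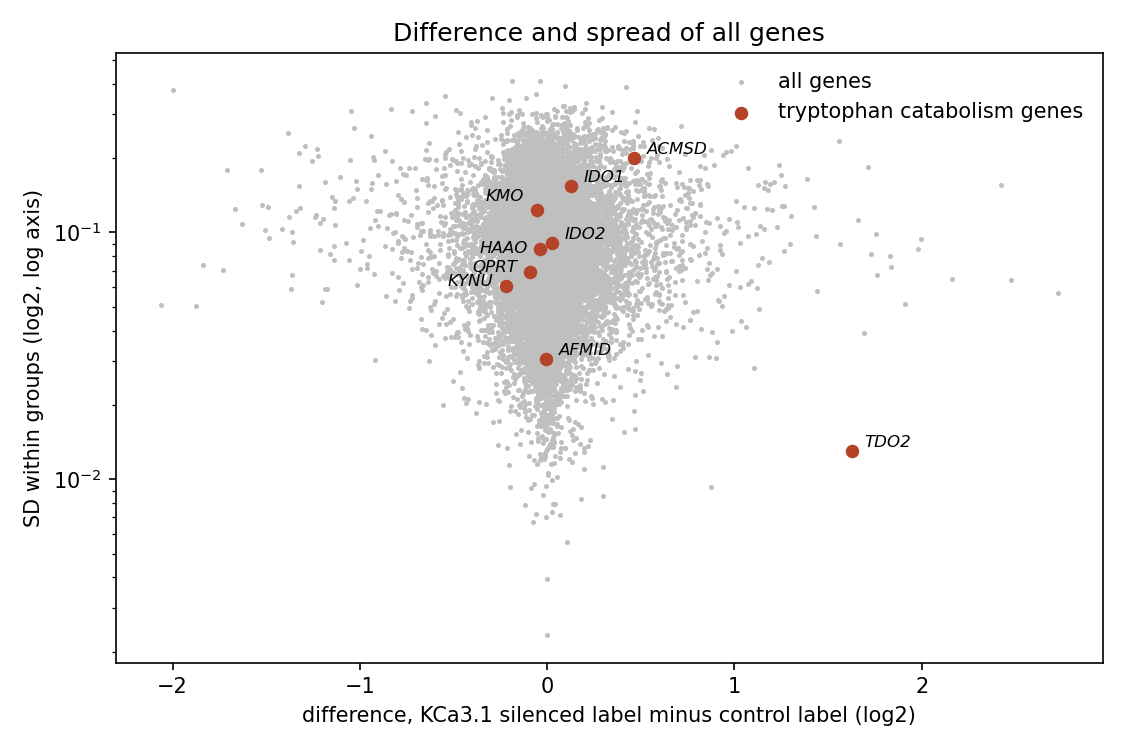
Each grey point is 1 of 18132 genes, placed by its difference between silenced-labelled and control arrays (log2) and by its SD within groups (log axis). TDO2 lies at a difference of 1.63 with an SD of 0.013, and ACMSD lies near the top of the cloud with an SD of 0.2.

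The genes around the path were described with 13 lists written from textbook knowledge, 118 genes in all. Of these 18 were higher, 15 lower and 85 did not pass, against 13.3% passing among all genes. The lists were written with earlier results of these data known, so nothing is read from these shares. In each gene named below as higher or lower the values of the silenced-labelled and control arrays did not overlap, as in 29.3% of all genes. That goes largely with passing the threshold and is no further evidence.

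On the branches from kynurenine and from the fork, AADAT and DHTKD1 were higher. AADAT encodes a transaminase that acts on kynurenine and on aminoadipate. It had 0.18, 0.05 and 0.39 in silenced-labelled and -0.60, -0.59 and -0.56 in control arrays, a difference of 0.79 (SE 0.082, limma adjusted p = 0.00034) or 1.73-fold. The other 3 transaminases of the list did not pass, with KYAT1 at 0.007 (SE 0.071, limma adjusted p = 0.97). DHTKD1, a subunit of the oxoadipate dehydrogenase on the way to glutarate, had 0.36, 0.40 and 0.38 in silenced-labelled and -0.12, 0 and -0.03 in control arrays, a difference of 0.43 (SE 0.056, limma adjusted p = 0.0011). Of the 3 genes of the glutarate branch 1 passed, against 2 without control replicate 2, and the median of these 3 was 0.18, that of the transaminases 0.10.

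Of 11 genes of NAD synthesis and salvage 0 were higher, 2 lower and 9 did not pass (median -0.03). NNMT, which methylates nicotinamide and so withdraws it from NAD salvage, had -0.51, -0.80 and -0.44 in silenced-labelled and 0.08, 0.24 and 0.33 in control arrays, a difference of -0.81 (SE 0.102, limma adjusted p = 0.00098) or 1.75-fold lower. NMNAT1, which makes NAD from the mononucleotides in the nucleus, had a difference of -0.33 (SE 0.076, limma adjusted p = 0.022). Its call was lost with specific probe sets (-0.24), without silenced replicate 2 (-0.28) or 3 (-0.33) and without control replicate 2 (-0.27) or 3 (-0.31). NADSYN1, the last enzyme of the route from quinolinate, and NAMPT, which starts salvage from nicotinamide, did not pass, with 0.02 and 0.17. Of 14 NAD-consuming enzymes 1 was higher, PARP14 (0.36, SE 0.055, limma adjusted p = 0.0026), 0 were lower and 13 did not pass (median -0.02). Without control replicate 1 the count that passed was 2.

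Of 10 transporters of tryptophan and kynurenine 1 was higher, 2 lower, and the other 7 did not pass (median -0.03). SLC16A10, which carries aromatic amino acids, had 0.43, 0.55 and 0.52 in silenced-labelled and -0.41, -0.52 and -0.49 in control arrays, a difference of 0.97 (SE 0.060, limma adjusted p = 1.9e-05) or 1.96-fold. SLC7A5, the light chain of the exchanger of large neutral amino acids, had -0.04, -0.09 and 0 in silenced-labelled and 0.52, 0.59 and 0.62 in control arrays, a difference of -0.62 (SE 0.056, limma adjusted p = 0.00016). Its heavy chain SLC3A2 had a like difference of -0.63 (SE 0.061, limma adjusted p = 0.00022).

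Among the 11 genes of other fates of tryptophan 3 were higher, 1 lower, and the other 7 did not pass (median 0.002). DDC, the decarboxylase of aromatic amino acids, had -0.01, -0.07 and 0.055 in silenced-labelled and -0.64, -0.66 and -0.60 in control arrays, a difference of 0.63 (SE 0.056, limma adjusted p = 0.00015). MAOB, a monoamine oxidase that degrades amines so formed, had a difference of 0.58 (SE 0.061, limma adjusted p = 0.00033). MAOA, the related oxidase, was higher by 0.33 (SE 0.059, limma adjusted p = 0.0057). MAOA was no longer past the threshold with its most variable probe set (0.33). WARS1, which charges tryptophan to its transfer RNA, had a difference of -0.30 (SE 0.053, limma adjusted p = 0.0061). TPH1, the hydroxylase that starts serotonin synthesis, did not pass (-0.08).

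**Figure D5:**
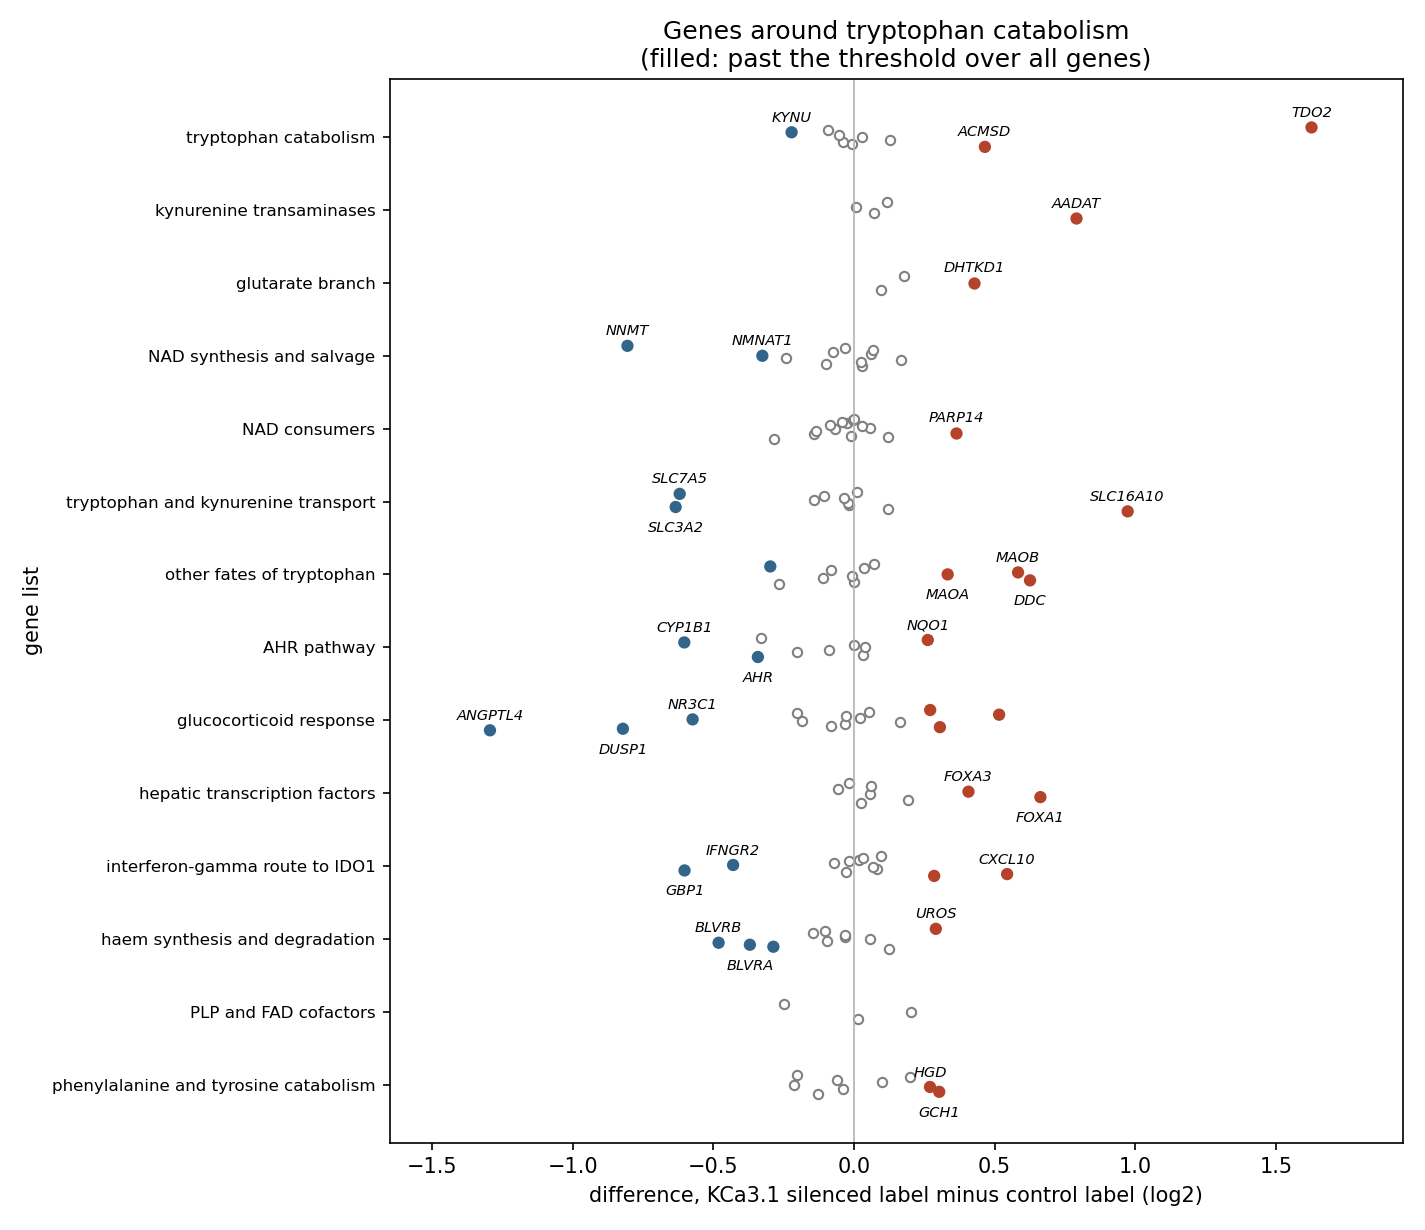
Each circle is a gene of a list, placed by its difference between silenced-labelled and control arrays (log2). Filled circles passed the threshold over all genes, red as higher and blue as lower, with up to 3 names a list, and TDO2 at 1.63 and ANGPTL4 at -1.29 lie farthest out.

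AHR is a transcription factor that kynurenine and kynurenic acid can bind. Of 9 genes of its pathway 1 was higher, 2 were lower and 6 did not pass (median -0.09). AHR itself had 0.07, -0.01 and -0.02 in silenced-labelled and 0.45, 0.20 and 0.43 in control arrays, a difference of -0.34 (SE 0.075, limma adjusted p = 0.017). That call was lost with specific probe sets (-0.30), without silenced replicate 2 (-0.33) or 3 (-0.33) and without control replicate 1 (-0.30) or 3 (-0.31). CYP1B1, a cytochrome induced by AHR, had a difference of -0.60 (SE 0.098, limma adjusted p = 0.0037), while CYP1A1, another such cytochrome, had 0.04 (SE 0.096, limma adjusted p = 0.87). NQO1, a quinone reductase induced by AHR and by NRF2, was higher by 0.26 (SE 0.053, limma adjusted p = 0.011), a call lost without silenced replicate 3 (0.26). The count of the list was 1 without silenced replicate 3. It was also 1 with specific probe sets, a setting that leaves out genes without such a probe set.

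Of 14 genes of the glucocorticoid response, the hormone signal known to induce TDO2, 3 were higher, 3 lower and 8 did not pass (median -0.03). NR3C1, the glucocorticoid receptor gene, had -0.39, -0.47 and -0.57 in silenced-labelled and 0.14, -0.06 and 0.21 in control arrays, a difference of -0.57 (SE 0.081, limma adjusted p = 0.0018). ANGPTL4, which glucocorticoids among other signals induce, had a difference of -1.29 (SE 0.132, limma adjusted p = 3e-04), or 2.45-fold lower. DUSP1, a phosphatase likewise induced, had a difference of -0.82 (SE 0.073, limma adjusted p = 0.00015). TAT, the tyrosine aminotransferase and like TDO2 a classic hepatic target of the hormone, had a difference of -0.20 (SE 0.062, limma adjusted p = 0.065) and did not pass. The 3 higher genes, chosen here after their values were seen, were SGK1 (0.52), FKBP5 (0.31) and ZBTB16 (0.27). Of 8 hepatic transcription factors 2 were higher, 0 lower, and the other 6 did not pass (median 0.06). FOXA1, a forkhead factor, had 0.26, 0.23 and 0.08 in silenced-labelled and -0.53, -0.43 and -0.45 in control arrays, a difference of 0.66 (SE 0.065, limma adjusted p = 0.00024). Its relative FOXA3 was higher by 0.41 (SE 0.077, limma adjusted p = 0.0082).

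Of 12 genes of the interferon-gamma route to IDO1 2 were higher, 2 lower and 8 did not pass (median 0.02). CXCL10, a chemokine, was higher by 0.54 (SE 0.068, limma adjusted p = 0.00088), and GBP1, a guanylate-binding protein, had a difference of -0.60 (SE 0.091, limma adjusted p = 0.0025), so these targets of interferon moved in opposite directions. IFNGR2, a receptor chain, had a difference of -0.43 (SE 0.074, limma adjusted p = 0.005), and IRF1, the factor that acts on IDO1, one of -0.07 and did not pass. The other higher gene, BIN1 (0.29), was chosen here after its value was seen.

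Haem is the cofactor of TDO2 and the IDO enzymes. Of 11 genes of its synthesis and degradation 1 was higher, 3 were lower and 7 did not pass (median -0.10). BLVRB, a biliverdin reductase that acts after haem is opened, had a difference of -0.48 (SE 0.081, limma adjusted p = 0.0044). BLVRA, the other reductase, had -0.37 (SE 0.076, limma adjusted p = 0.012). ALAS1, the entry enzyme of haem synthesis, had -0.29 (SE 0.062, limma adjusted p = 0.016). UROS, a later enzyme of synthesis, was higher by 0.29 (SE 0.070, limma adjusted p = 0.025), and HMOX1, which opens haem, had -0.03 and did not pass. Without silenced replicate 2 the calls of BLVRA (-0.35), ALAS1 (-0.26) and UROS (0.29) were lost and 1 gene of the list passed. The ALAS1 call was also lost without control replicate 2 (-0.24), and that of UROS without silenced replicate 3 (0.25), without control replicate 1 (0.23) and with the most variable probe set (0.29). Of 3 genes for the cofactors of KYNU and KMO 0 passed in limma's test, with differences from -0.25 to 0.20. The count that passed was 1 under quantile normalisation, without silenced replicate 2 and without control replicate 2.

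Phenylalanine and tyrosine are degraded by a parallel hepatic path. Of its 9 measured genes 2 were higher, 0 lower and 7 did not pass (median -0.04). HGD, a ring-opening dioxygenase, was higher by 0.27 (SE 0.052, limma adjusted p = 0.0091). GCH1, which starts the synthesis of the biopterin cofactor, was higher by 0.30 (SE 0.067, limma adjusted p = 0.017), a call lost without silenced replicate 2 (0.29) or 3 (0.28) or control replicate 2 (0.31). The count that passed was 1 in each of these cases. It was also 1 with specific probe sets, where genes without such a probe set are left out.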

How the data were processed

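The authors' deposited values are named as RMA output in the submitters' processing notes and were read as log2. RMA subtracts background, equalises the distributions of arrays and combines probes into probe sets. Its version, later steps, the log base and the genome build are not given in the sources used here. Array medians were 0 and 80.6% of the 49395 probe sets held an exact 0 on at least 1 array, 11 of the 16 probe sets of this set among them, so each probe set appears centred on a baseline of its own. Base 2 is what RMA writes by default. The number of arrays limits the precision.

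After leaving out 102 control probe sets, gene values were averaged over the probe sets that carry 1 symbol. Platform annotation gave 44988 probe sets 1 symbol, 1832 several and 2473 none here. limma 3.58.1 in R 4.3.3 (lmFit, eBayes) was fitted to all 18132 genes with group as the only term and Benjamini-Hochberg adjustment, and separately to all probe sets. On simulated data for this comparison, with 18132 genes, the fit called 71% of 100 genes changed by 0.5 and 99% of 100 changed by 1 (log2), and 8 unchanged genes. The members and lists were chosen with earlier results of these data known. Named beside the 9 genes are KCNN4, the 3 largest differences past the threshold in each list, a fixed set of pathway genes and the 5 genes closest to TDO2. Of 128 list genes 118 are analysed here. Same-numbered arrays did not deviate together (r from -0.096 to -0.0397).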

Additional observations from a re-analysis of the deposited data

How the results depend on the processing

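The 15 alternatives changed the gene value, probe set kind, scaling, filters, variance shrinkage or the arrays used. The count of all genes past the threshold was 2418 and 1641 to 2289 with 1 array left out. That of lower genes was 1123, against 736, 747 and 745 without silenced replicate 2, silenced replicate 3 and control replicate 3. That of probe sets was 5261, against 3479, 3358, 3252 and 3444 without silenced replicates 1, 2 and 3 and control replicate 3. Of the 9 tryptophan catabolism genes 3 passed, against 1 to 2 with 1 array left out, and of the 118 surrounding genes 33 passed, against 27 to 35. With the replicate block 2065 genes passed, 2 of the 9 and 35 of the 118, and KYNU no longer did (-0.22). The shared numbers gave no sign of pairing (r of same-numbered deviations -0.096, -0.0694 and -0.0397). Between arrays of different numbers r ranged from -0.379 to 0.381, and whether some of these share a batch was not tested. Of 132 recomputed differences of the 9 genes 10 moved by over 1 SD and 4 changed sign, in AFMID, IDO2 and KMO, which did not pass. Of 713 recomputed differences of other named genes 25 lost their call and 16 changed sign, all 16 in 5 genes that did not pass (KCNN4, NADSYN1, CYP1A1, KYAT1 and HMOX1). The difference of KCNN4 ranged from -0.0445 to 0.0548. Of the differences that passed 0 changed sign. Because values are relative to a baseline, a gene that varies little cannot be told from one that is barely expressed.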

Other observations

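The nearest measured gene on each side of the 9 tryptophan catabolism genes was taken in RefSeq order, passing over genes not measured. That gave 16 genes outside the set, of which 6 passed the threshold, where 13.3% of all genes did. Besides CTSO and OPN3 these were TCIM next to IDO2 (-0.92), OXER1 (-0.38) and ZFP36L2 (0.21) on either side of HAAO, and BIRC5 next to AFMID (0.20). ZFP36L2 lies 2 genes from HAAO. Among those that did not pass, RGS7 lies 2 genes from KMO and BOLA2 5 from QPRT. IDO2, HAAO and AFMID themselves did not pass. These neighbours were singled out after their values were seen.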
